A study of Mus musculus with 6 samples.

Results

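Liver RNA of aged mice lacking *Sirt7*, which encodes a nicotinamide adenine dinucleotide-dependent deacylase, was examined for 8 genes: *Serpina12*, *Pla2g12a*, *Slc41a2*, *Slc16a7*, *Bok*, *Insc*, *Cmah* and *Cyp4f14*. The genes were chosen by their p-values in the comparison of genotypes in these same livers, where they ranked between 2 and 13 of 12524 tested genes, and genes grouped by pathway were passed over. They are 8 of 54115 genes for which reads were summed, and all 8 passed the filter on low counts. Their genotype differences are therefore given as a description, with no test.

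RNA-seq had been performed on the livers of 3 wild-type (WT) and 3 *Sirt7* knockout (KO) mice. All were 24-month-old males on a C57BL/6J background, bred as littermates from heterozygous parents and fasted for 16 h. The knockout is not limited to the liver. The 6 libraries held 9994860 to 13424776 reads on transcripts.

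The 8 genes share no pathway. *Serpina12* and *Pla2g12a* encode secreted proteins, *Slc41a2* and *Slc16a7* encode carriers in membranes, *Bok* and *Insc* encode intracellular proteins of cell death and cell polarity, and *Cmah* and *Cyp4f14* encode enzymes that hydroxylate a sugar nucleotide and lipid mediators. The liver is the main source of most plasma serpins, exports and takes up monocarboxylates according to the feeding state, and inactivates leukotrienes by omega-hydroxylation.

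The reference sequences below show where the genes start, for the 5 genes whose listed start lies near the first base of a transcript that led in the liver. Each window is taken from RefSeq (GRCm38.p6), runs 5′ to 3′ on the strand of the gene, and spans 250 bases before to 50 bases after the listed start. They are *Serpina12* at chr12:104044394-104044693 (minus strand), *Slc41a2* at chr10:83337768-83338067 (minus strand), *Bok* at chr1:93685325-93685624 (plus strand), *Cmah* at its distal start at chr13:24327154-24327453 and its proximal start at chr13:24414872-24415171 (plus strand), and *Cyp4f14* near the first base of Cyp4f14-206 at chr17:32917280-32917579 and near that of Cyp4f14-201 at chr17:32917038-32917337 (minus strand). The listed start of *Bok* lies 85 bases upstream of the first base of Bok-201. That of *Slc41a2*, at 83337817, lies downstream of the first base of Slc41a2-201, at 83337882 on the minus strand. Capitals mark the motif letters found on either strand.
Serpina12: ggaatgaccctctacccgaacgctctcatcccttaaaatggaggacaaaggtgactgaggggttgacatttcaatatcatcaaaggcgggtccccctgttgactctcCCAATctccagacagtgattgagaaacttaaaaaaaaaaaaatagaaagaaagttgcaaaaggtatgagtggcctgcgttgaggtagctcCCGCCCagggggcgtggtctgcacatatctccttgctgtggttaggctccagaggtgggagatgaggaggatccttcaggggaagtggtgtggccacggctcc
Slc41a2: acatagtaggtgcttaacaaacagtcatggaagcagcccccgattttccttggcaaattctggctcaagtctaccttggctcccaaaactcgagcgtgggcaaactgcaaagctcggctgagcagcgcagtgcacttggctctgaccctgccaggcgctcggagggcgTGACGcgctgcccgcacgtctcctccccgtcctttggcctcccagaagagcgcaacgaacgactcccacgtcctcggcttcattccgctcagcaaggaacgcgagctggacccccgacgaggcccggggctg
Bok: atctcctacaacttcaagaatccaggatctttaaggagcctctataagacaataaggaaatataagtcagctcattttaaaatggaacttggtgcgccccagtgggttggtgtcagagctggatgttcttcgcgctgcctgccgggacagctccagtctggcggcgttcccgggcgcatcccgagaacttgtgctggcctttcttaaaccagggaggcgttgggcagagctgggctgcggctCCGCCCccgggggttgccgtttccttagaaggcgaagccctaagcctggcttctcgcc
Cmah distal: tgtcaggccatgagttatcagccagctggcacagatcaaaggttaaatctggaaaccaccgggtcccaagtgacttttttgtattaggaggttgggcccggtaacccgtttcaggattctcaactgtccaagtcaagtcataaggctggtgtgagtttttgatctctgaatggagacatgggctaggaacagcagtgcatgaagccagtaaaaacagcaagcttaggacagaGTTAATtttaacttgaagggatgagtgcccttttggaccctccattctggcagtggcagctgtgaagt
Cmah proximal: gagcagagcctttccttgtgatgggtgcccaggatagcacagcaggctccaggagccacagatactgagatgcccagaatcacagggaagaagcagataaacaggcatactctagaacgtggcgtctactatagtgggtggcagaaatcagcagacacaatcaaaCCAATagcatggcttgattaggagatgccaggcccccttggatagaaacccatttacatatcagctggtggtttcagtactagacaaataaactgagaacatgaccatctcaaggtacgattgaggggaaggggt
Cyp4f14 upstream: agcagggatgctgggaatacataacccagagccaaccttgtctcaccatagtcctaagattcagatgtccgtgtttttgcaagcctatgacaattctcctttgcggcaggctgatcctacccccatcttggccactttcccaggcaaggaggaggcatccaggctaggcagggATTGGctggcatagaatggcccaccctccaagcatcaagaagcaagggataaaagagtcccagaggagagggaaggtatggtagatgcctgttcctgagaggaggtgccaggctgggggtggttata
Cyp4f14 downstream: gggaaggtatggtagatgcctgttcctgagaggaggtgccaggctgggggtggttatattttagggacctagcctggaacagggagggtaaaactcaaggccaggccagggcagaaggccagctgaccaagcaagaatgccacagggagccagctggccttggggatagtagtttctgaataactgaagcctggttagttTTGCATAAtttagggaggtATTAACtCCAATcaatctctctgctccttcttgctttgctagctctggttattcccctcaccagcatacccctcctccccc

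The capitals in *Serpina12* are CCAAT, beginning 143 bases before the start, and CCGCCC, the reverse complement of the GC box GGGCGG, beginning 53 bases before it. In *Slc41a2* they are TGACG, the core of a cyclic AMP response element, 82 bases before the listed start, and in *Bok* CCGCCC, 8 bases before the listed start. *Cmah* holds GTTAAT, a core of the HNF1 site, 18 bases before the distal start and CCAAT 85 bases before the proximal one, and *Cyp4f14* holds ATTGG, the reverse complement of CCAAT, 77 bases before the upstream start. Before the downstream start of *Cyp4f14* lie TTGCATAA, the reverse complement of the D-box TTATGNAA, at 50 bases, ATTAAC, that of GTTAAT, at 31 bases, and CCAAT at 24 bases. The other 2 windows listed for *Cyp4f14* overlap the upstream one and hold the same ATTGG. Of all 32851 windows in the table, 37.4% hold CCAAT, 35.7% hold GGGCGG, 20.8% hold TGACG, 7.1% hold GTTAAT and 3.38% hold TTATGNAA. The other motifs searched on both strands were the TATA box TATAAA, the E-box CACGTG, the full cyclic AMP response element TGACGTCA, the sterol response element TCACNCCAC, the nuclear receptor site AGGTCA, the FOXO site TGTTTAC, the STAT5 site TTCNNNGAA, the HNF4 site CAAAGTCCA, the DR1 element (a pair of nuclear receptor sites) and the endoplasmic reticulum stress response element. None of them has its letters in these 7 windows, and between 0.0396% (the DR1 element) and 16.3% (the nuclear receptor site) of all windows hold them. The shorter cyclic AMP, nuclear receptor and CCAAT motifs are part of the longer elements, so they overlap by construction. No motif is in all of the windows. *Slc41a2* has 24 CG dinucleotides and *Bok* has 16, above the median of 7 over all windows, *Serpina12* has 7, both *Cmah* windows have 3 and those of *Cyp4f14* have 2 and 0. The windows listed for *Insc* and *Pla2g12a* belong to starts with no or few liver reads, as given below, and *Slc16a7* had no entry.

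Before any of these genes, *Sirt7* itself was measured as a check of the labels. It had 55.2, 45.5 and 47.3 CPM (read counts per library of standard size, scaled by TMM) in WT livers and 28.6, 41.7 and 40.8 CPM in *Sirt7* KO livers. The groups did not overlap, and the difference did not pass the test (log2 fold change −0.41 ± 0.18 SE, adjusted p = 0.42, edgeR). The full-length transcript Sirt7-201 had 429, 381 and 408 reads in WT and 124, 135 and 77.5 reads in KO livers, while the shorter Sirt7-202 had 2.12, 5.12 and 0 reads against 50.5, 54.1 and 93.3. Sirt7-207, of 1218 bases, had 43.0, 0 and 65.3 reads in WT and 83.5, 119 and 192 reads in KO livers. The sum per gene thus mixes Sirt7-201, lower in every *Sirt7* KO liver, with the shorter Sirt7-202 and Sirt7-207, which were higher. Not all other transcripts were higher. Sirt7-203 had 85.3, 50.1 and 53.2 reads in WT and 8.45, 23.9 and 12.2 reads in KO livers. The short Sirt7-204 had 10.7, 6.12 and 8.48 reads in WT and 0 reads in every KO liver. On a scale per transcript length the difference turned (log2 fold change 0.80, adjusted p = 0.27, edgeR with length offsets).

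Other features of the livers are given here because they bear on every value. The 11 hepatocyte markers matched (of 12 listed, albumin among them) summed to 69050 to 72574 CPM in WT and 70091 to 83447 CPM in KO livers, and 0 of 11 had an unadjusted p under 0.05. The 12 Kupffer cell markers summed to 97.3 to 244 CPM in WT and 94.8 to 251 CPM in KO livers. Genes with higher expression in male than in female liver were examined in the same way. Of 16, 12 had an unadjusted p under 0.05 and were higher in KO livers, beside 6.54% of all genes, 0 passed after adjustment, and their sum was 3628, 21866 and 26447 CPM in WT and 44158, 31251 and 38989 CPM in KO livers. WT replicate 1 stood apart from the other WT livers in this sum, and 13 of 16 had such a p without it. Of 18 genes with higher expression in female liver, 6 could be tested and 3 had an unadjusted p under 0.05, all lower in KO livers, beside 4.78% of all genes, with sums of 209 to 309 CPM against 20.1 to 48.1 CPM. Without WT replicate 1 that count was 1, and 0 passed after adjustment with all livers. None of the 8 genes is in either list, and the part of these differences in their values was not tested. In bulk liver, fewer cells of a type and less RNA per cell cannot be told apart.

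By CPM, 6 of the 8 genes were higher and 2 were lower in *Sirt7* KO livers, and none had overlapping genotypes, where 16.8% of all tested genes did not overlap (8.74% higher and 8.09% lower in KO). None of the 8 was called by edgeR's quasi-likelihood test at an adjusted p under 0.05 with a fold change over 1.5, a rule that called 0.00798% of all genes. All 8 were called by DESeq2 under the same rule, which called 2.16% of genes (1.57% higher, 0.595% lower), and all 8 had an unadjusted p under 0.05 in edgeR, as did 11.3% of genes (6.54% higher, 4.78% lower). These are the values that chose the genes, so nothing is read from them.

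**Figure D1:**
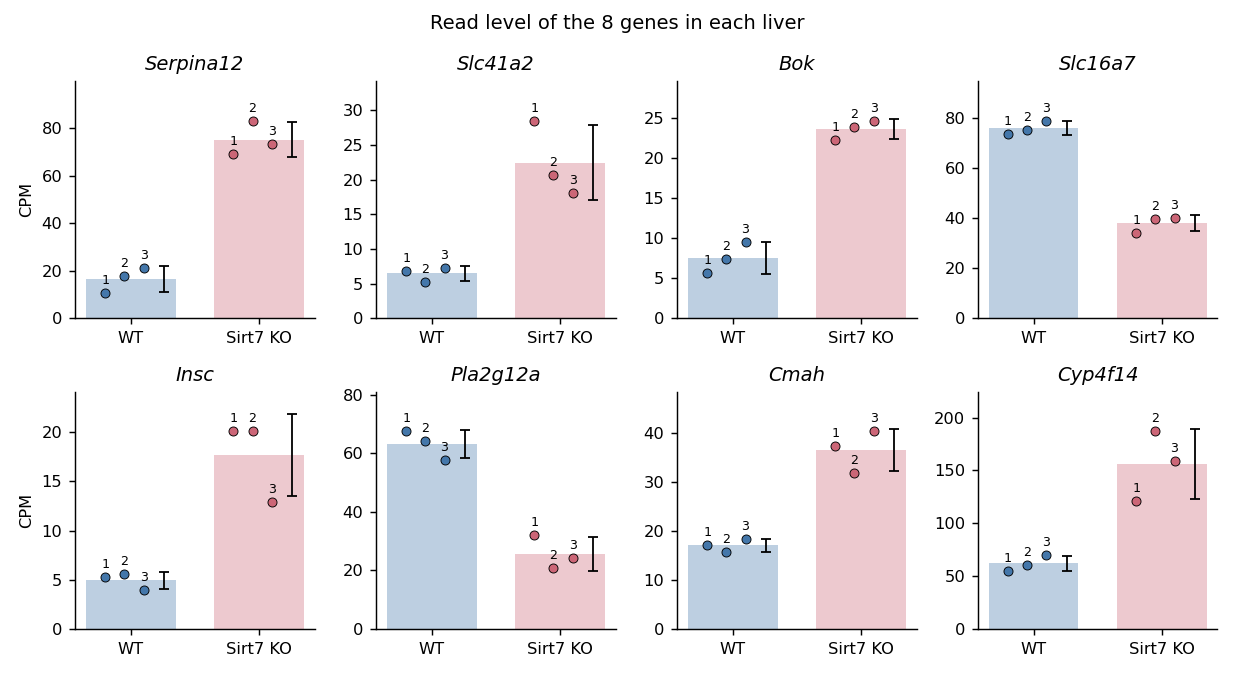
Read level of the 8 genes (CPM, linear axes from 0) in each WT and *Sirt7* KO liver, with numbers for replicates, bars for the mean and error bars for the SD (n = 3 each). *Slc16a7* and *Pla2g12a* are lower in every KO liver than in any WT liver, and the other 6 genes are higher, with the widest KO spread in *Cyp4f14* (121 to 187 CPM).

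*Serpina12* (ENSMUSG00000041567.3) encodes vaspin, a serpin known as an adipokine that inhibits the protease kallikrein 7. It lies on chr12:104028769-104044443, minus strand, in the serpin cluster. WT livers had 10.7, 17.8 and 21.3 CPM (126, 196 and 288 reads), and *Sirt7* KO livers had 69.0, 83.3 and 73.3 CPM (753, 786 and 761 reads). Every KO liver was above every WT liver, and WT replicate 1 was the lowest. The means were 16.6 ± 5.42 and 75.2 ± 7.35 CPM (SD, n = 3 each), a 4.53-fold higher level in KO (log2 fold change 2.18 ± 0.24 SE). Leaving out WT replicate 1 gave 1.94 and leaving out WT replicate 3 gave 2.40, the ends of the range over the 6 livers. The gene has 1 annotated transcript, of 5 exons and 3690 bases, and none of its words of 31 bases occurs in another gene.

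The neighbouring serpins were compared with the fit across all genes. *Serpina11*, the nearest tested gene on one side at 38.8 kb, had 62.7, 50.9 and 58.9 CPM in WT against 83.5, 70.8 and 80.4 CPM in KO livers (log2 fold change 0.44 ± 0.15, unadjusted p = 0.014, adjusted p = 0.29). *Serpina1e*, which encodes an alpha-1-antitrypsin and lies 69.8 kb away, had 197, 1908 and 2379 CPM in WT and 5357, 6140 and 6363 CPM in KO livers (1.99 ± 0.68, adjusted p = 0.32). WT replicate 1 was far below the other WT livers, and all KO livers were above all WT livers. *Serpina4-ps1*, the nearest on the other side at 36.2 kb, had 0.423, 1.45 and 3.85 CPM against 5.95, 3.39 and 3.18 CPM, with overlap. Serpin clade A was listed with kallikrein 7, which was not among the tested genes. Of 15 tested genes of the clade, 4 had an unadjusted p under 0.05, all higher in KO, beside 6.54% of all genes. The median log2 fold change of the clade was 0.23 against −0.01 for all tested genes. The other 2 of the 4 were *Serpina3k*, a relative of alpha-1-antichymotrypsin, at 6991 against 13067 CPM (0.90 ± 0.22, adjusted p = 0.19 by edgeR and 0.00084 by DESeq2), and *Serpina10*, the inhibitor of coagulation factor X that depends on protein Z, at 65.4 against 95.7 CPM (0.55 ± 0.21, adjusted p = 0.36). Members of this cluster are close copies of each other, so single values of *Serpina1e* and *Serpina3k* are uncertain.

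*Pla2g12a* (ENSMUSG00000027999.15) encodes the group XIIA secreted phospholipase, one of the enzymes that release fatty acids from the middle position of phospholipids. It lies on chr3:129878606-129895825, plus strand. Its levels were 67.6, 64.1 and 57.9 CPM in WT (798, 707 and 783 reads) and 32.1, 20.7 and 24.3 CPM in KO livers (351, 195 and 252 reads). All KO livers were below all WT livers, and KO replicate 1 came closest to WT. The means were 63.2 ± 4.89 and 25.7 ± 5.87 CPM (SD, n = 3 each), a 2.46-fold lower level in KO (log2 fold change −1.30 ± 0.18 SE), ranging from −1.49 without KO replicate 1 to −1.16 without KO replicate 2. On the scale per length (TPM), *Pla2g12a* was the most abundant of the 8 genes in WT livers, at 60.6 ± 6.69 TPM, and followed *Cyp4f14* and *Bok* in KO livers, at 21.5 ± 4.74 TPM.

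Most reads of *Pla2g12a* were assigned to Pla2g12a-201, with 86.6%, 87.1% and 84.3% in WT and 90.6%, 86.8% and 80.8% in KO livers. Pla2g12a-202, which begins in the first intron, took 6.89%, 9.96% and 5.99% in WT and 3.87%, 0% and 6.75% in KO livers, so the shares overlapped. Pla2g12a-204, a transcript annotated for nonsense-mediated decay, took 5.54%, 2.2% and 8.54% in WT and 3.26%, 9.91% and 10.9% in KO livers, also with overlap. The promoter table lists only the start of Pla2g12a-202. The first junction of Pla2g12a-202 differs from that of Pla2g12a-201, which Pla2g12a-204 shares, and the common second exon is in capitals:
Pla2g12a-201: acaagtgcagcgacgGATCGAAGCCTGTTC
Pla2g12a-202: gtctcaggattggaaGATCGAAGCCTGTTC

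*Pla2g12b*, the closest relative and a protein without the catalytic activity of its family, had 66.2, 74.6 and 65.5 CPM in WT and 82.4, 85.7 and 82.9 CPM in KO livers. It was on the other side of zero from *Pla2g12a* (log2 fold change 0.28 ± 0.13, unadjusted p = 0.058, adjusted p = 0.46). Of 6 phospholipase genes that could be tested among 21, 2 had an unadjusted p under 0.05, both higher in KO, beside 6.54% of all genes. They were *Pla2g15*, the lysosomal phospholipase (11.1 against 16.8 CPM, 0.60 ± 0.19, adjusted p = 0.28), and *Pla2g16*, an adipose phospholipase (2.36 against 4.34 CPM, 0.87 ± 0.31, adjusted p = 0.34). The immediate neighbours are *Cfi*, encoding complement factor I, at 3.3 kb (0.28 ± 0.14, adjusted p = 0.50) and *Casp6*, encoding a caspase, at 5.6 kb (0.02 ± 0.20, adjusted p = 0.98). Neither neighbour shared the direction of *Pla2g12a*.

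*Slc41a2* (ENSMUSG00000034591.5) encodes a magnesium carrier and lies on chr10:83230848-83337882, minus strand. It was the least abundant of the 8 genes per length in both genotypes, at 1.21 ± 0.244 TPM in WT and 4.10 ± 0.717 TPM in KO livers. In reads it had 6.86, 5.26 and 7.25 CPM in WT (81, 58 and 98 reads) and 28.5, 20.7 and 18.1 CPM in KO livers (311, 195 and 188 reads). KO replicate 1 was the highest, and the genotypes stayed apart. The means were 6.46 ± 1.05 and 22.4 ± 5.4 CPM (SD, n = 3 each), a 3.46-fold higher level in KO (log2 fold change 1.79 ± 0.23 SE), and it was 1.58 without KO replicate 1. Of 5 annotated transcripts, Slc41a2-201 took at least 99.4% of reads in every liver.

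Of 14 tested genes of magnesium transport, 2 had an unadjusted p under 0.05, both lower in KO livers, where 4.78% of all genes had such a p and were lower. *Cnnm4*, encoding a magnesium exporter of the basolateral membrane, had 6.35, 4.72 and 4.29 CPM in WT and 1.83, 3.50 and 3.08 CPM in KO livers (log2 fold change −0.87 ± 0.35, adjusted p = 0.39). *Nipa1* had 1.18 to 1.54 CPM in WT and 0 to 0.733 CPM in KO livers, too few reads for a firm ratio. The nearest relative *Slc41a1* had 1.69, 3.90 and 5.92 CPM against 2.93, 6.25 and 7.13 CPM, with overlap (0.49 ± 0.49, adjusted p = 0.76). The flanking genes *Txnrd1*, encoding a thioredoxin reductase 333.1 kb away (0.01 ± 0.14), and *D10Wsu102e* at 22.3 kb (−0.27 ± 0.18) had adjusted p of 0.98 and 0.61.

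*Slc16a7* (ENSMUSG00000020102.15) encodes the monocarboxylate transporter MCT2, a carrier of pyruvate, lactate and ketone bodies with high affinity. It lies on chr10:125219270-125389465, minus strand, on the same chromosome as *Slc41a2*. The 8 genes lie on 7 chromosomes, none on the chromosome of *Sirt7*. WT livers had 73.6, 75.3 and 78.9 CPM (869, 830 and 1067 reads), and KO livers had 34.2, 39.7 and 40.0 CPM (373, 375 and 415 reads). This was the tightest of the 8 genes within genotypes, with a pooled SD of 0.10 on the log2 scale, lower than in all but 4.1% of tested genes. The means were 75.9 ± 2.73 and 38.0 ± 3.29 CPM (SD, n = 3 each), a 2.0-fold lower level in KO (log2 fold change −1.0 ± 0.14 SE), and the value stayed between −1.04 and −0.93 as each liver was left out. Scaling to total reads gave −1.11. An antisense gene, *Gm45604*, and an unconfirmed transcript, *Gm47862*, overlap *Slc16a7* on the other strand, and the library kit does not mark strand. Of the 31-base words of *Slc16a7*, on either strand, 2.095% occur in other genes and 1.267% in *Gm47862*.

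Slc16a7-202 carried most reads, with 67.7%, 77.4% and 76.2% in WT and 74.4%, 80.9% and 81.9% in KO livers. Slc16a7-201, from a start further upstream, took 19.1%, 10.8% and 8.70% in WT and 8.95%, 10.6% and 4.30% in KO livers. All 3 isoforms in use have the same coding length of 1452 bases, and the shares of each overlapped between genotypes. Only 4.62% of the 31-base words of Slc16a7-202 are absent from the other isoforms. The first junctions, with the shared second exon in capitals, read:
Slc16a7-202: aatcctcctcgaatgATAATCTGGAGGCTG
Slc16a7-201: tctctctctctccagATAATCTGGAGGCTG

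In monocarboxylate transport, 4 of 14 tested genes had an unadjusted p under 0.05, 3 lower and 1 higher in KO livers, beside 11.3% of all genes (6.54% higher and 4.78% lower), and the median log2 fold change was −0.01. *Slc16a5*, encoding the carrier MCT6, had 22.2, 30.3 and 27.4 CPM in WT and 14.8, 16.4 and 9.06 CPM in KO livers (−0.99 ± 0.24, adjusted p = 0.17 by edgeR and 0.021 by DESeq2). *Mpc2*, a subunit of the mitochondrial pyruvate carrier, had 367 against 238 CPM (−0.62 ± 0.19, adjusted p = 0.26 and 0.06), and *Slc16a12*, encoding a creatine carrier, had 33.7 against 25.7 CPM with overlap (−0.40 ± 0.16, adjusted p = 0.40). In the other direction, *Ldhd*, encoding mitochondrial D-lactate dehydrogenase, had 63.6, 72.9 and 79.2 CPM in WT and 103, 150 and 128 CPM in KO livers (0.82 ± 0.17, adjusted p = 0.15 by edgeR and 0.0035 by DESeq2). *Slc16a1*, encoding MCT1, the nearest relative, had 43.8 against 45.3 CPM (0.05 ± 0.40, adjusted p = 0.98), with KO replicate 1 alone at 80.9 CPM. The flanking genes *Usp15* and *Lrig3* lie 2022.3 and 576.7 kb away and had log2 fold changes of −0.11 ± 0.15 (adjusted p = 0.83) and 0.57 ± 0.27 (adjusted p = 0.47).

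**Figure D2:**
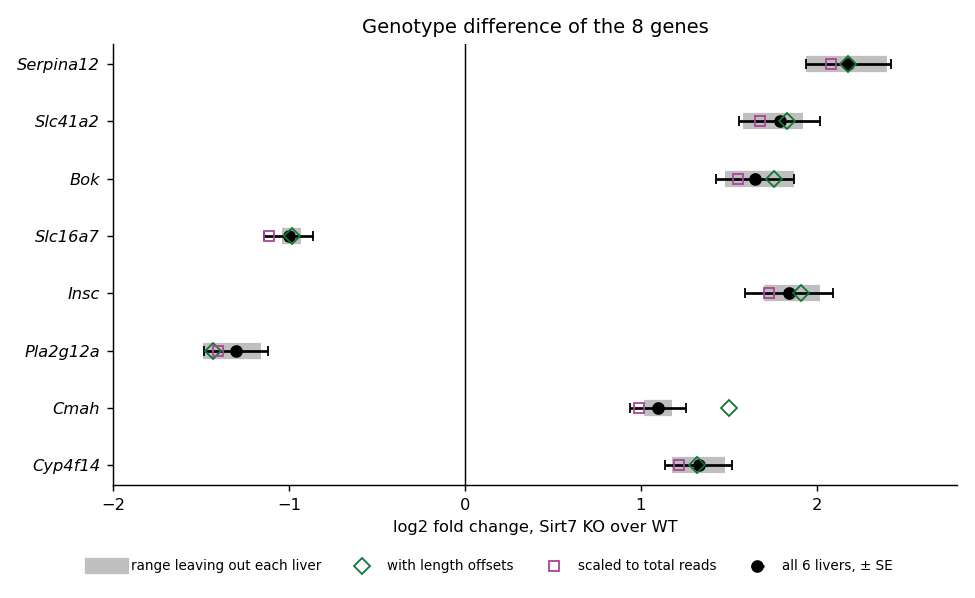
Log2 fold change of *Sirt7* KO over WT for each gene from all 6 livers (points, with SE), the range as each liver is left out (grey), and the values with transcript length offsets (diamonds) or scaled to total reads (squares). All 8 keep their sign in every setting, and *Cmah* moves the most, from 1.10 to 1.5 with length offsets.

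*Bok* (ENSMUSG00000026278.14) encodes a BCL-2 family protein that can permeabilize mitochondria, binds inositol trisphosphate receptors and is turned over by endoplasmic reticulum-associated degradation. It lies on chr1:93685660-93695764, plus strand. WT livers had 5.59, 7.35 and 9.54 CPM (66, 81 and 129 reads), and KO livers had 22.3, 23.9 and 24.7 CPM (244, 226 and 256 reads). The KO livers were close to each other and all above WT, and WT replicate 1 was the lowest. The means were 7.49 ± 1.98 and 23.7 ± 1.19 CPM (SD, n = 3 each), a 3.15-fold higher level in KO (log2 fold change 1.65 ± 0.22 SE), and it was 1.48 without WT replicate 1.

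Bok-201, the coding transcript of 5 exons, held 64.2%, 87.1% and 77.4% of the reads in WT and 68.5%, 69.7% and 67.0% in KO livers. Bok-202, a noncoding transcript of 735 bases that covers the last exons from a start of its own, held 28.6%, 8.28% and 21.6% in WT and 31%, 29.3% and 33.0% in KO livers. The Bok-202 shares did not overlap, with WT replicate 1 and KO replicate 2 the nearest. This was 1 of 2 such isoforms among 17 at 5% or more in the genes with several transcripts. Over all tested genes, 7.88% of such isoforms did not overlap. Of the 31-base words of Bok-202, 21.0% occur in no other isoform. Both isoforms had fewer reads in every WT liver than in any KO liver. Bok-201 had 42.4, 70.6 and 99.9 reads against 167, 158 and 171 reads, and Bok-202 had 18.8, 6.70 and 27.9 reads against 75.7, 66.2 and 84.5. The first splice junctions, with the second exon in capitals, read:
Bok-201: catgaggcgggagagGTGTGGCGCCTCTCG
Bok-202: accagctgatggcagGTATCACATGGGGCA

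In the BCL-2 family and its partners, 4 of 17 tested genes had an unadjusted p under 0.05, 1 higher and 3 lower in KO livers, beside 11.3% of all genes (6.54% higher and 4.78% lower), and the median log2 fold change was −0.22. *Bbc3*, encoding the BH3-only protein PUMA, had 4.40, 6.17 and 2.74 CPM in WT and 8.33, 8.58 and 7.03 CPM in KO livers (0.85 ± 0.32, adjusted p = 0.36). *Bcl2l11*, encoding BIM, had 6.22 against 2.88 CPM with overlap (−1.11 ± 0.46, adjusted p = 0.41), *Bik* had 7.40 against 4.95 CPM (−0.58 ± 0.25, adjusted p = 0.43) and *Bcl2l13* had 29.9 against 23.2 CPM (−0.37 ± 0.16, adjusted p = 0.44). The other pore-forming members were *Bax*, at 31.3 against 27.6 CPM (−0.18 ± 0.17, adjusted p = 0.75), and *Bak1*, with at most 0.549 CPM in any liver and not tested. None of these passed after adjustment by either tool. The flanking genes *Stk25*, encoding a kinase at 27.0 kb, and *Thap4* at 6.2 kb had log2 fold changes of 0.13 ± 0.15 and −0.06 ± 0.21 (adjusted p = 0.80 and 0.95). *Farp2*, encoding an exchange factor at 63.7 kb, had 15.5 to 19.9 CPM in WT and 21.8 to 32.5 CPM in KO livers (0.59 ± 0.19, unadjusted p = 0.014, adjusted p = 0.29).

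*Insc* (ENSMUSG00000048782.15) encodes the inscuteable adaptor, which links the polarity protein PAR3 to LGN and orients the mitotic spindle. It lies on chr7:114743694-114850383, plus strand. WT livers had 5.25, 5.62 and 3.99 CPM (62, 62 and 54 reads), and KO livers had 20.1, 20.1 and 12.9 CPM (219, 190 and 134 reads). KO replicate 3 was lower than the other KO livers and still above all WT livers. The means were 4.96 ± 0.854 and 17.7 ± 4.15 CPM (SD, n = 3 each), a 3.57-fold higher level in KO (log2 fold change 1.84 ± 0.25 SE), with a range of 1.70 to 2.02 as each liver was left out. It had the fewest WT reads of the 8 genes, so a difference of a few reads weighs most here.

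Most reads of *Insc* were assigned to an internal start. Of the 31-base words of Insc-201, 3.18% occur in no other isoform, so this rests largely on how the authors' quantification divided shared reads. Transcripts that begin at 114768736 to 114768774 (Insc-201 and Insc-206) held 94.4%, 98.4% and 94.4% of reads in WT and 94.8%, 99.4% and 96.3% in KO livers. Those that begin at 114745740 to 114745766, the upstream start that the promoter table lists, held 0 reads in all 6 livers. The isoforms share their second exon, in capitals, and differ in the exon before it:
Insc-201: tcagaagaggaggagGGTCCGGACCGCTGT
Insc-208: tcttgtaaaatcagaGGTCCGGACCGCTGT

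In spindle orientation and polarity, 1 of 18 tested genes had an unadjusted p under 0.05. This was *Gpsm2*, which encodes LGN, a binding partner of inscuteable. It had 8.89, 11.1 and 14.5 CPM in WT and 17.2, 16.7 and 17.5 CPM in KO livers (log2 fold change 0.58 ± 0.21, unadjusted p = 0.022, adjusted p = 0.34 by edgeR and 0.38 by DESeq2). That is 5.56% of the list, beside 11.3% of all genes. Mitotic genes were near the floor: 8 proliferation markers summed to 2.63 to 2.88 CPM in WT and 2.44 to 7.42 CPM in KO livers, and none of them could be tested. The flanking genes were *Gm15500* at 37.5 kb (−0.21 ± 0.13, adjusted p = 0.59) and *Sox6*, encoding a transcription factor 620.5 kb away, at 10.2 to 12.6 CPM in WT and 6.32 to 8.29 CPM in KO livers (−0.56 ± 0.21, unadjusted p = 0.026, adjusted p = 0.36).

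*Cmah* (ENSMUSG00000016756.17) encodes the hydroxylase that turns CMP-N-acetylneuraminic acid into the glycolyl form of sialic acid, an enzyme that humans lack. It lies on chr13:24327404-24477377, plus strand. WT livers had 17.1, 15.6 and 18.4 CPM (202, 172 and 249 reads), and KO livers had 37.3, 31.8 and 40.3 CPM (407, 300 and 418 reads). The groups were well apart in this unit, and the spread within each was small. The means were 17.0 ± 1.41 and 36.4 ± 4.30 CPM (SD, n = 3 each), a 2.14-fold higher level in KO (log2 fold change 1.10 ± 0.16 SE). With length offsets it was 1.5. Its reads were split between transcripts of 9727 and 3124 bases in shares that differed between livers. Of its 31-base words 15.017% occur in other genes and an antisense gene overlaps it, so its level is less certain than those of *Serpina12*, *Bok* and *Insc*, which share no word.

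The reads of *Cmah* came mostly from 2 starts, whose windows are printed above. The proximal start held 23.3%, 35.5% and 17.3% in WT and 15.9%, 45.1% and 49.0% in KO livers. KO replicate 1 lay below all WT livers and the other KO livers lay above them, so the genotypes overlapped. None of the 31-base words of Cmah-206 and 0.0324% of those of Cmah-207 occur in no other isoform, so the split between starts rests on how the authors' quantification divided shared reads. In reads, the distal start had 155, 111 and 206 in WT and 342, 165 and 207 in KO livers, and the proximal start had 47.3, 61.3 and 43.0 in WT and 64.6, 136 and 205 in KO livers. Cmah-206 and Cmah-207, the leading transcript of each start, have the same coding length of 1731 bases, and their first junctions read:
Cmah-206: agaacagatcagcagGGTGGAGCTGGGAGA
Cmah-207: catgaccatctcaagGCAGTCTAAAGTCAT

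In sialic acid metabolism, 5 of 24 tested genes had an unadjusted p under 0.05, 4 higher and 1 lower in KO livers, beside 11.3% of all genes (6.54% higher and 4.78% lower), with a median log2 fold change of 0.08. *St6galnac6*, encoding a sialyltransferase, had 32.1, 31.7 and 27.9 CPM in WT and 45.1, 58.6 and 49.6 CPM in KO livers (0.74 ± 0.15, adjusted p = 0.15 by edgeR and 0.014 by DESeq2). *St3gal5*, encoding the synthase of ganglioside GM3, had 189, 221 and 265 CPM in WT and 151, 98.2 and 117 CPM in KO livers (−0.88 ± 0.20, adjusted p = 0.17 and 0.0025). *Siae*, the sialic acid esterase (0.44 ± 0.14), and *St3gal1*, a transferase of O-glycans (0.64 ± 0.22), had adjusted p of 0.29 and 0.32 by edgeR. *Cmas*, which makes the substrate of the hydroxylase, had 46.9 against 47.7 CPM (0.03 ± 0.17, adjusted p = 0.97). Next to *Cmah*, *Carmil1*, encoding a regulator of actin capping at 46.6 kb, had 6.10, 1.81 and 3.62 CPM in WT and 9.07, 8.16 and 8.09 CPM in KO livers (1.13 ± 0.39, adjusted p = 0.32), and *Slc17a4*, encoding a phosphate and urate carrier 412.4 kb away, had 18.5, 10.7 and 20.4 CPM against 23.4, 33.2 and 41.5 CPM (0.98 ± 0.28, adjusted p = 0.23 by edgeR and 0.035 by DESeq2). On the other side *Gmnn*, encoding geminin, was at −0.17 ± 0.25 (adjusted p = 0.84) and *BC005537* at −0.35 ± 0.13 (adjusted p = 0.36).

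*Cyp4f14* (ENSMUSG00000024292.15) encodes a cytochrome P450 that omega-hydroxylates leukotriene B4 and other fatty acids. It lies on chr17:32905070-32917342, minus strand, beside its relative *Cyp4f13*. WT livers had 55.2, 60.8 and 69.8 CPM (652, 670 and 943 reads), and KO livers had 121, 187 and 159 CPM (1317, 1761 and 1655 reads). It was the most abundant of the 8 genes per length in KO livers, at 67.6 ± 17.2 TPM, after 27.7 ± 2.70 TPM in WT livers. The means were 61.9 ± 7.34 and 156 ± 33.2 CPM (SD, n = 3 each), a 2.51-fold higher level in KO (log2 fold change 1.33 ± 0.19 SE), with 1.48 without KO replicate 1 and 1.18 without KO replicate 2. Of its 31-base words 7.218% occur in other genes, most of them in *Cyp4f15*.

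Most reads of *Cyp4f14* were split between Cyp4f14-206 and Cyp4f14-201, and Cyp4f14-202 held 7.46%, 5.58% and 6.03% in WT and 19.2%, 9.76% and 20.2% in KO livers. The Cyp4f14-202 shares did not overlap, and its reads were 48.6, 37.4 and 56.8 in WT and 253, 172 and 334 in KO livers. Cyp4f14-206 held 48.4%, 42.9% and 51.6% in WT and 30.0%, 56.5% and 38.7% in KO livers, and Cyp4f14-201 held 44.2%, 41.7% and 42.4% against 50.8%, 33.7% and 40.9%, both with overlap. The coding length is 1572 bases in all 3, which differ in their first exons. The first exon has 198 bases in Cyp4f14-202 and 26 bases in Cyp4f14-206, and Cyp4f14-201 starts in the intron after it. The first junctions, with the second exon in capitals, read:
Cyp4f14-206: tgttcctgagaggagGATGTCACAGCTGAG
Cyp4f14-202: aataactgaagcctgCAGGATGTCACAGCT
Cyp4f14-201: ggtcacgtgggcatgGTAACTCCTACAGAG

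No word of 31 bases is found in Cyp4f14-202 alone among the 6 annotated transcripts, so its share rests on how the authors' quantification divided shared reads. Among 16 tested genes of the CYP4F family, leukotriene B4 and vitamin K metabolism, 5 had an unadjusted p under 0.05, 3 higher and 2 lower in KO livers, beside 11.3% of all genes (6.54% higher and 4.78% lower), with a median log2 fold change of 0.18. *Aldh3a2*, encoding the fatty aldehyde dehydrogenase that oxidizes the product of omega-hydroxylation further, had 261, 463 and 273 CPM in WT and 214, 141 and 147 CPM in KO livers (−0.99 ± 0.26, adjusted p = 0.21 by edgeR and 0.0052 by DESeq2). *Ggcx*, the vitamin K-dependent carboxylase, had 32.7 against 56.2 CPM (0.78 ± 0.23, adjusted p = 0.24 and 0.062), and *Lta4h*, which makes leukotriene B4, had 27.6 against 37.8 CPM (0.45 ± 0.17, adjusted p = 0.36). The relatives next to it in the genome and in sequence had log2 fold changes of 0.07 ± 0.14 for *Cyp4f13* (adjusted p = 0.90) and 0.36 ± 0.23 for *Cyp4f15* (adjusted p = 0.59), both with overlap. On the other side *Zfp870*, a zinc finger gene at 13.4 kb, had 1.45 to 2.51 CPM in WT and 2.60 to 4.56 CPM in KO livers (0.93 ± 0.40, unadjusted p = 0.045, adjusted p = 0.42).

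**Figure D3:**
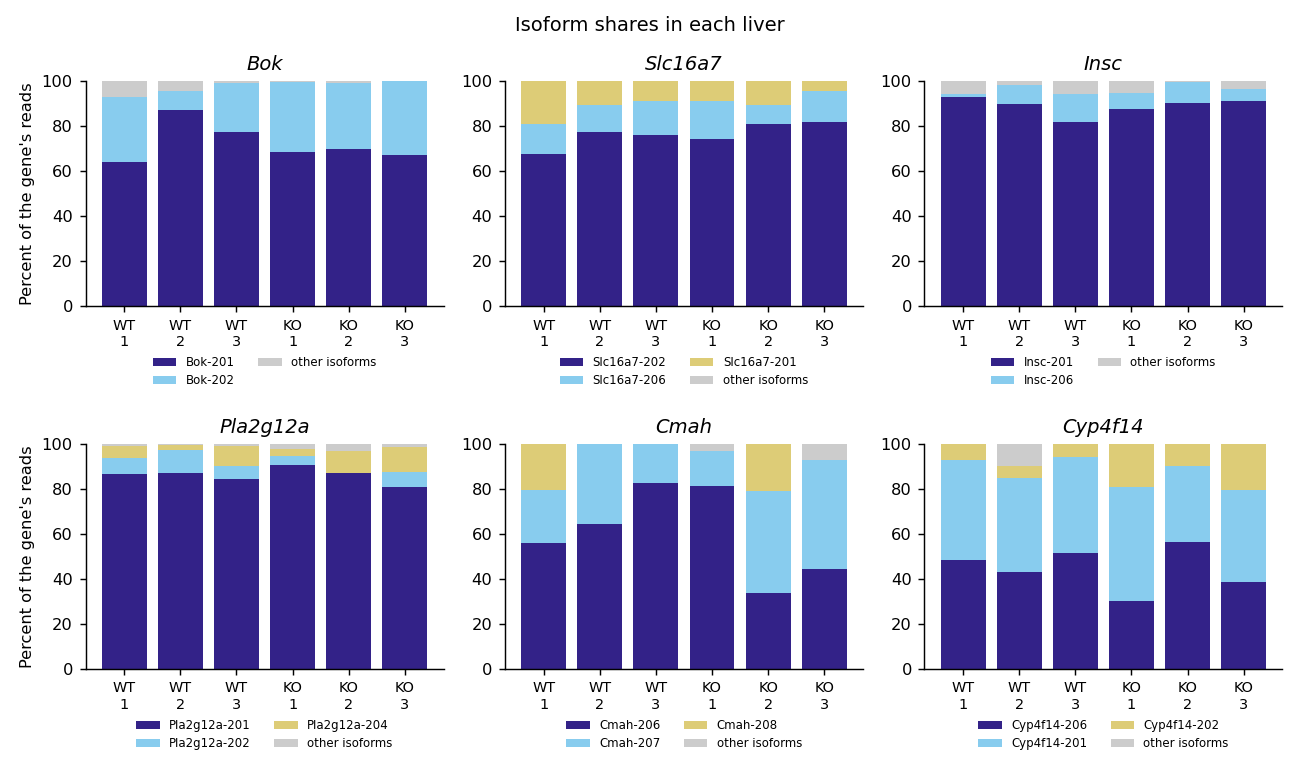
Share of each gene's reads assigned to its isoforms (percent) in each liver, for the 6 genes with more than 1 isoform at 5% or more; grey is the rest. Bok-202 and Cyp4f14-202 have larger shares in every KO liver than in any WT liver. The shares of the other isoforms at 5% or more overlap.

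Across the 8 lists together, 178 genes were listed and 124 tested. None of the 124 was called by edgeR at an adjusted p under 0.05, and 27 had an unadjusted p under 0.05, 16 higher and 11 lower in KO livers, or 21.8% against 11.3% of all tested genes. DESeq2 called 6 of them, *Serpina3k*, *Ldhd* and *St6galnac6* higher and *Slc16a5*, *St3gal5* and *Aldh3a2* lower. The called relatives of *Slc16a7* stood on both sides of zero, and so did those of *Cmah*. Of the 9 tested genes fixed as nearest relatives or partners, *Serpina11* and *Gpsm2* had an unadjusted p under 0.05. The lists were chosen with earlier results of these data known. Nothing is therefore read from their shares beside those of all genes, here or list by list above.

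**Figure D4:**
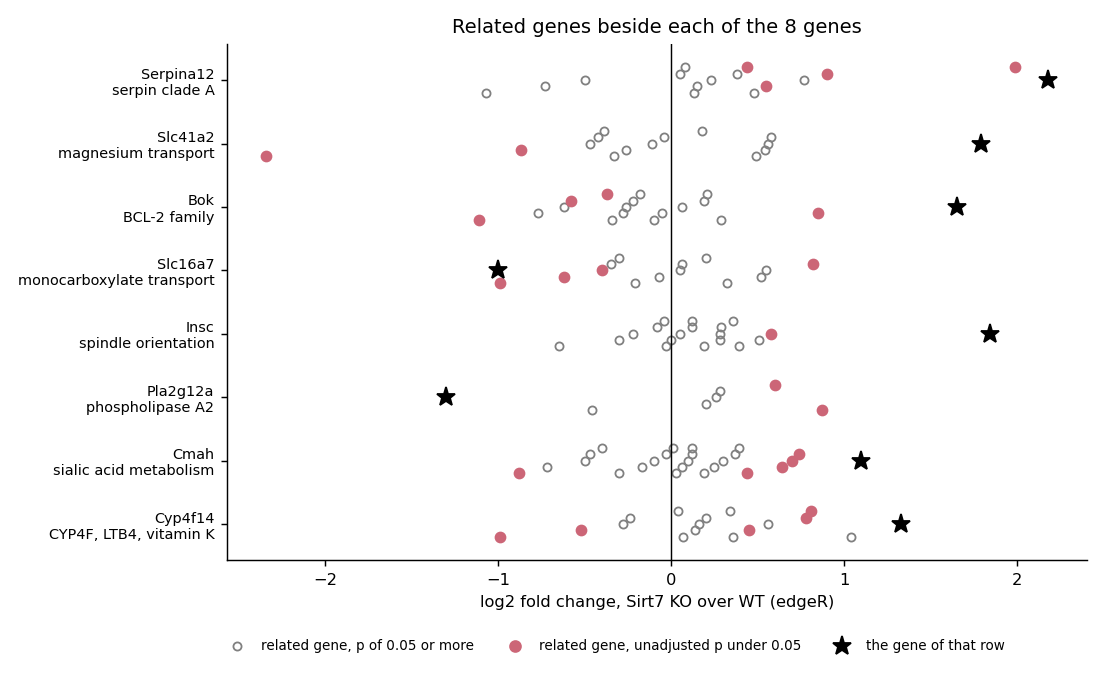
Log2 fold change of *Sirt7* KO over WT (edgeR) for the 124 tested related genes in 8 lists, with each of the 8 genes as a star in its own row; filled circles have an unadjusted p under 0.05. The filled circles lie on both sides of zero in the rows of *Bok*, *Slc16a7*, *Cmah* and *Cyp4f14*.

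Position was not used to choose the genes. Of the 32 tested neighbours, 2 on each side of each gene and 3.3 to 2142.8 kb away, 8 had an unadjusted p under 0.05 (25.0% against 11.3% of all genes), 6 higher and 2 lower in KO livers. *Serpina11* and *Serpina1e*, among the higher ones, are also counted among the related genes above. None was called by edgeR and *Slc17a4* was called by DESeq2. The 6 higher neighbours lie beside *Serpina12*, *Bok*, *Cmah* and *Cyp4f14*, and the 2 lower ones beside *Insc* and *Cmah*. Both genes that were lower in KO livers, *Slc16a7* and *Pla2g12a*, have no neighbour with such a p, and neither has *Slc41a2*.

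**Figure D5:**
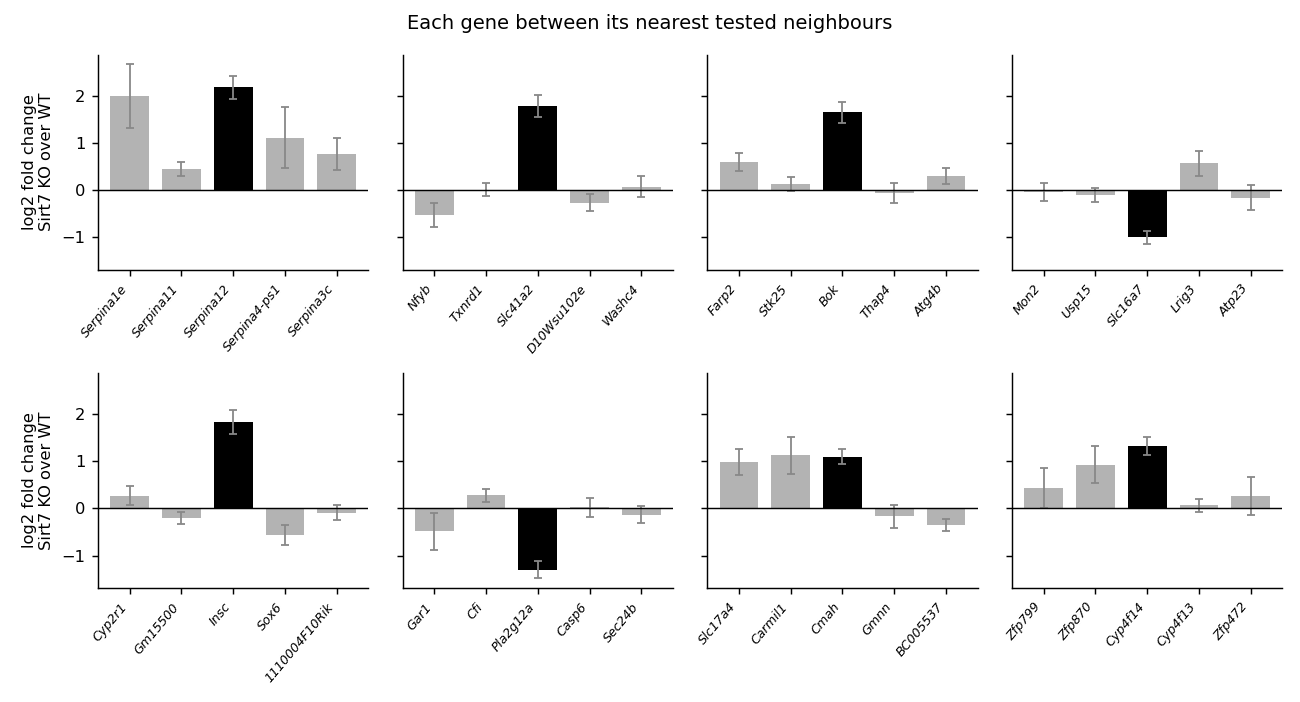
Log2 fold change of *Sirt7* KO over WT with SE for each of the 8 genes (black) and its 2 nearest tested genes on each side (grey), in order along the chromosome. Both neighbours on the left of *Serpina12*, *Bok*, *Cmah* and *Cyp4f14* are above zero, and no neighbour of *Pla2g12a* or *Slc16a7* lies as low as the gene itself.

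Per length, the order of levels differed between genotypes. In WT livers it was *Pla2g12a*, *Slc16a7*, *Cyp4f14*, *Bok* (7.12 TPM), *Insc* (5.04 TPM), *Serpina12* (4.0 TPM), *Cmah* (2.38 TPM) and *Slc41a2*. The ranges of *Slc16a7* (27.0 to 29.1 TPM) and *Cyp4f14* (25.9 to 30.8 TPM) overlapped, as did those of *Insc* and *Serpina12*. In KO livers it was *Cyp4f14*, *Bok* (23.5 TPM), *Pla2g12a*, *Insc* (18.2 TPM), *Serpina12* (17.8 TPM), *Slc16a7* (13.8 TPM), *Cmah* (6.57 TPM) and *Slc41a2*. The ranges from *Bok* to *Serpina12* overlapped from each gene to the next, as did those of *Cmah* and *Slc41a2*. The places of *Insc* and *Bok* lean on short transcripts. Insc-206, of 363 bases, held on average 48.1% of the TPM of *Insc* in WT livers, from 1.0, 5.42 and 6.88 reads. In KO livers it held 50.1%. The noncoding Bok-202, of 735 bases, held on average 33.9% of the TPM of *Bok* in WT and 52.6% in KO livers.

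The genes whose levels followed each of the 8 most closely were found by Pearson's r of log2(CPM + 0.5) over the 6 livers among 8912 genes with a mean of at least 50 counts. Since the livers form 2 genotype groups that do not overlap for any of the 8, such genes share that separation, and r is a description. *Serpina12* and *Bok* were among each other's closest (r = 0.996). The closest to *Serpina12* was *Spcs3*, encoding a subunit of the signal peptidase (r = 0.998), with 23.5 to 28.8 CPM in WT and 46.2 to 48.1 CPM in KO livers. The closest to *Bok* was *Nmi*, an interferon-inducible gene (r = 0.999), with 12.7 to 15.9 against 24.9 to 26.4 CPM. For *Slc41a2* it was *Fabp5*, encoding a fatty acid-binding protein (r = 0.993), with 1.09 to 2.81 against 9.15 to 17.4 CPM.

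*Cmah* was followed by *C8b*, encoding a complement component (r = 0.995), with 130 to 160 against 260 to 321 CPM, and by *Lifr*, a cytokine receptor (r = 0.993). *Cyp4f14* was followed by *Dbt*, encoding a subunit of the branched-chain ketoacid dehydrogenase (r = 0.997), and by *Ldhd* (r = 0.992), and *Insc* by the sulfhydryl oxidase gene *Qsox1* (r = 0.984). Of the lower genes, *Slc16a7* was followed by *Amdhd2*, an enzyme of amino sugar breakdown (r = 0.994), and *Npepl1* (r = 0.990), and *Pla2g12a* by *Ptpn12*, a phosphatase gene (r = 0.990), and *Polr2i*, a subunit of RNA polymerase II (r = 0.990). From 25 genes for *Insc* to 96 for *Cyp4f14* had r over 0.95, so the leading names are drawn from many near ties.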

How the data were processed

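Full-length cDNA (SMART-seq HT, from total RNA) and Nextera XT libraries of 6 livers had been sequenced as single-end reads, without strand information. Per the labels and methods, the authors trimmed reads with Trim Galore 0.6.5 and quantified transcripts with Salmon 1.2.1 against the GRCm38 transcriptome, and deposited estimated counts and TPM per transcript.

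Estimated counts were summed by GENCODE M21 gene and rounded. Of 140992 transcripts, 1201 had no gene in this annotation, with 0.303 to 0.492% of reads. edgeR 4.0.16 (R 4.3.3, TMM, filterByExpr with a minimum count of 10, quasi-likelihood test, Benjamini-Hochberg adjustment) compared 3 *Sirt7* KO with 3 WT livers over 12524 genes, and a call needed an adjusted p under 0.05 and a fold change over 1.5. DESeq2 1.42.0 was the alternative tool. The script was tested on simulated counts. An isoform was described if it held at least 5% of a gene's reads on average in either genotype. Apart from the 8 genes, the text names *Sirt7*, fixed nearest relatives or partners, and the 2 genes of highest Pearson's r. It also names up to 4 genes per related list with the smallest unadjusted p under 0.05. Of the neighbours, it names the nearest tested gene on each side and any of the 4 with such a p. Some genes that these rules name are not reported here. Members and lists were chosen with earlier results of these data known. The p-values set the genotype difference against the spread between livers of a genotype. That spread was estimated from 3 livers per genotype and, in part, from all genes.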

Additional observations from a re-analysis of the deposited data

How the results depend on the processing

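The log2 fold changes of the 8 genes kept their sign in all 128 alternative values (16 per gene), of which 124 moved by less than the spread between livers. The 4 that moved more were *Slc16a7* scaled to total counts (−1.11) and *Cmah* by DESeq2 with length offsets (1.51), edgeR with length offsets (1.5) and the ratio of mean TPM (1.47). The count of genes called over all genes, 1 higher and 0 lower in the edgeR fit, depended on the setting. It was 187 and 71 by DESeq2, 173 and 69 by DESeq2 with length offsets, 417 and 216 without a filter, 31 and 10 with the replicate number as a block, 2 higher with total counts, 1 lower by edgeR with length offsets, and 554 and 371 with an unadjusted p. It ranged from 0 to 165 higher and 0 to 87 lower as each liver was left out, with both highest counts without *Sirt7* KO replicate 1. Among related genes, where edgeR called 0, DESeq2 called 3 higher and 3 lower, DESeq2 with length offsets 3 and 2, no filter 5 and 4, an unadjusted p with the fold 11 and 7, and leaving out 1 liver 0 to 3 in each direction, with 3 and 3 without *Sirt7* KO replicate 1. Related genes with an unadjusted p under 0.05 that were lower numbered 17 with total counts and 5 to 11 as each liver was left out. Higher neighbours with such a p numbered 3 to 8 as each liver was left out. Lower neighbours numbered 1 by DESeq2 with length offsets, 0 by DESeq2, 1 by edgeR with length offsets, 1 without a filter, 4 with total counts and 0 to 3 as each liver was left out. Among isoforms of the 8 genes at 5% or more, those with shares that did not overlap numbered 2 to 7 as each liver was left out. The 7 came without *Sirt7* KO replicate 1. In units of TPM, 5 of 17 differences in share moved by more than the spread. Of the 16 genes most alike, Spearman's rho kept 1. *Sirt7* turned to 0.80 by edgeR and 0.81 by DESeq2 with length offsets. The counts of sex-biased genes without WT replicate 1 were chosen after seeing the data. Deviations of livers with the same replicate number correlated at 0.07, 0.08 and −0.04, and not every liver correlated best with its own number. Whether livers with the same number shared a litter or a batch cannot be told from these values. The cause of these changes was not tested.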
